A study of Mus musculus with 20 samples.

Results

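The comparison set peripheral CD8 T cells of β5t-KO mice against those of β5i-KO mice, through the variable ends of both T cell receptor (TCR) chains. It used 9 of the 20 mice of the series, β5t-KO replicates 1 to 4 and β5i-KO replicates 1 to 5, chosen by genotype label and by having a usable library of each chain. β5t-KO replicate 5 was left out because its libraries held 24 in-frame CDR3α and 11 in-frame CDR3β sequences. All mice were male, 9 to 12 weeks old and of the B6 background. β5t-KO mice lack β5t, encoded by Psmb11, and keep β5i. β5i-KO mice lack β5i, encoded by Psmb8, and keep β5t. No other allele or agent was named for these groups. WT mice, which carry both subunits, gave 4 usable libraries and are set beside the values as a reference. From each mouse 1000000 TCRβ-high CD4-CD8+ cells were sorted at a purity above 98%. The labels name lymph nodes as the source, while the protocol names lymph nodes and spleens.

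β5t is the catalytic subunit of the thymoproteasome, which is found in cortical thymic epithelial cells, the cells that present the peptides on which CD8 T cells are positively selected. β5i occupies the same place in the immunoproteasome of immune cells and of other thymic antigen-presenting cells. A TCRα chain is made by joining a V to a J gene segment, and a TCRβ chain by joining V, D and J segments. The third complementarity-determining region (CDR3) spans the join, holds any nucleotides added there, and lies over the presented peptide. TCR tables do not measure Psmb8 or Psmb11, and the genotypes are therefore taken from the labels unchecked. The tables also hold no CD8 or other cell marker. Chains of other T cells were rare. TRAV11 joined to TRAJ18, the chain of invariant NKT cells, made up at most 0.0289% of in-frame TCRα molecules in β5i-KO mice and at most 0.00691% in β5t-KO mice. TRAV1 joined to TRAJ33, the chain of MAIT cells, reached 0.0296% in β5i-KO mice and 0.176% in β5t-KO replicate 2.

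Depth differed between mice. In-frame TCRα clonotypes, each a distinct combination of V gene, J gene and CDR3 nucleotide sequence, numbered 4652 to 26948 per β5i-KO mouse and 656 to 8168 per β5t-KO mouse. The TCRβ libraries held 5430 to 41373 and 393 to 6686 clonotypes. In-frame molecules per library ranged from 13519 to 269678 for TCRα and from 7669 to 139509 for TCRβ. The shallowest libraries were β5t-KO replicate 2 by clonotypes and β5i-KO replicate 4 by TCRα molecules. In the latter 53.7% of TCRα clonotypes rested on 1 molecule, against 7.15% to 8.74% in the other 8 mice. A higher molecule share of a sequence can come from more cells of a clone or from more TCR RNA per cell, and the libraries do not separate these.

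The CDR3α sequences that differed most between the genotypes were of 2 kinds. Those higher in β5t-KO mice were mostly TRAV12-1 rearrangements of 14 to 16 residues that keep most of the germline V end and carry an arginine at position 6. Those lower in β5t-KO mice were mostly TRAV12-1 rearrangements of 10 to 12 residues. TRAV12-1 lies on chromosome 14 from 53775648 to 53776195 (GRCm39, GENCODE vM39, plus strand). The commonest nucleotide form of 8 of these sequences over the 9 mice is printed next to show how each join was made, in lower case from the conserved cysteine to the conserved J residue. Capitals mark bases that match neither the V nor the J end, and a form without capitals has no such base. Each line gives the amino acid sequence, where it is short enough to print, and the V and J genes.
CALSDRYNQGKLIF, TRAV12-1 to TRAJ23: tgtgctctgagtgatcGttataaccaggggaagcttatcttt
CALSDRYSNNRLTL, TRAV12-1 to TRAJ7: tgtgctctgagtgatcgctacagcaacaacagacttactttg
TRAV12-1 to TRAJ15, 15 residues: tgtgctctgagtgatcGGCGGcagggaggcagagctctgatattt
TRAV12-1 to TRAJ32, 16 residues: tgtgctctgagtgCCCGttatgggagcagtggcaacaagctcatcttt
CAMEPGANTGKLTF, TRAV13-4-DV7 to TRAJ52: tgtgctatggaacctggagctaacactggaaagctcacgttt
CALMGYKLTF, TRAV12-1 to TRAJ9: tgtgctctgatgggctacaaacttaccttc
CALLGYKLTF, TRAV12-1 to TRAJ9: tgtgctctgTtgggctacaaacttaccttc
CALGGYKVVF, TRAV12-1 to TRAJ12: tgtgctcttggaggctataaagtggtcttt

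Across all recurring sequences, 20 of 5714 CDR3α sequences passed the test, 11 of them higher in β5t-KO mice and 9 higher in β5i-KO mice (edgeR quasi-likelihood test on unique molecules, Benjamini-Hochberg adjusted p under 0.05). That is 0.35% of those tested, and 2036 had an unadjusted p under 0.05 in edgeR. Over all 5714 the median log2 fold change was -1.86, so the typical tested sequence was lower in β5t-KO mice. The part of depth in this was not tested. Of the 11, 3 reached the abundance filter in β5t-KO mice alone, the group where they were high, while none of the 9 reached it in β5i-KO mice alone. A sequence entered the test with at least 10 counts per 1000000 in-frame molecules (CPM) in at least 3 mice of any genotype. Of the 11 higher sequences, 9 used TRAV12-1, 7 had arginine at position 6 and none was shorter than 13 residues. Of the 9 lower sequences, all used TRAV12-1, 8 had at most 12 residues and 5 used TRAJ9. The other, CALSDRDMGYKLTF, named after its values were seen, had 14 residues and an arginine at position 6. How common these genes, lengths and residues were among all 5714 tested sequences was not counted. The counts therefore describe the called sequences and do not show an enrichment among them. Summed over the 11, the mean share of molecules was 9.06% in β5t-KO and 0.247% in β5i-KO mice. The 9 lower sequences together held 0.000863% in β5t-KO and 0.567% in β5i-KO mice. Both lists were picked by this comparison in these mice, so the direction of the sums was set by the choice.

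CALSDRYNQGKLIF was the most abundant CDR3α of β5t-KO mice. Its level was 55594, 54033, 42792 and 60922 CPM in the 4 β5t-KO mice and 896, 3286, 742, 1849 and 1490 CPM in the 5 β5i-KO mice. All β5t-KO mice were far above all β5i-KO mice, and the 4 WT mice lay between them, at 4203 to 12051 CPM. The log2 fold change was 5.01 ± 0.41 (SE), with an edgeR adjusted p of 5.12e-31. CALSDRYSNNRLTL, with the same V gene and TRAJ7, stood at 16919, 13102, 17239 and 28921 CPM in β5t-KO mice. In β5i-KO mice it stood at 552, 612, 367, 148 and 1035 CPM, again without overlap, and the log2 fold change was 5.12 ± 0.64 (SE, edgeR adjusted p 4.18e-12). WT mice held 1195 to 3658 CPM of it. In β5i-KO replicate 4 these 2 sequences rested on 25 and 2 molecules.

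3 sequences with arginine at position 6 were found in β5t-KO mice and in no β5i-KO mouse. The 15-residue TRAJ15 join was at 1483, 5517, 3289 and 2165 CPM in the β5t-KO mice, and it entered the test through both β5t-KO mice and BIT mice, a group of the series in which β5t is made in place of β5i. Against 0 of 725474 β5i-KO molecules, a count that allows up to 4.14 CPM, its level was at least 753-fold higher (edgeR adjusted p 1.19e-07). The 16-residue TRAJ32 join was present in 3 of 4 β5t-KO mice, at least 223-fold higher, and a 15-residue TRAJ39 join in 3 of 4, at least 175-fold higher. These latter joins reached the abundance filter in β5t-KO mice alone, the group where they were high, so their folds are a description and no test is given. These bounds put 3 molecules, summed over the mice of the empty group, in place of 0 and cover counting error only.

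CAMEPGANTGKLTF was the one sequence named here among the higher 11 that does not use TRAV12-1. It joins TRAV13-4-DV7 to TRAJ52, and both genes were also used more often in β5t-KO mice. Its level was 1167, 2779, 1338 and 1844 CPM in β5t-KO mice, while in β5i-KO mice it was 10.4 and 37.1 CPM in replicates 1 and 3 and undetected in the other 3. The log2 fold change was 7.16 ± 1.63 (SE, edgeR adjusted p 0.00687). In 786 of its molecules over both groups, 92.4% of the total, the join had no added base. The other 2 named sequences had TRAV12-1 with a leucine at position 6. A 16-residue join to TRAJ5 averaged 1471 ± 1359 CPM (SD, n = 4) in the β5t-KO group and 6.39 ± 9.4 CPM (SD, n = 5) in the β5i-KO group, with an edgeR adjusted p of 0.0121. A 15-residue join to TRAJ22 was at 5128 CPM in 1 β5t-KO mouse and undetected in another, so its mean of 1382 ± 2502 CPM (SD, n = 4) rested on 1 mouse. It too reached the filter in β5t-KO mice alone, and no test is given.

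The sequences lower in β5t-KO mice were short. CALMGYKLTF was at 1829, 1925, 1602, 1923 and 2400 CPM in the 5 β5i-KO mice and at 0, 0, 34.5 and 0 CPM in the β5t-KO mice. It was among the 3 commonest CDR3α of β5i-KO mice, and WT mice held 2447 to 3742 CPM. The log2 fold change was -7.72 ± 1.22 (SE, edgeR adjusted p 3.88e-07). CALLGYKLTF, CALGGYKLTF, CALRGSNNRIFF, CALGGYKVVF, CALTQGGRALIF and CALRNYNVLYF were found in no β5t-KO mouse. A count of 0 in 508369 β5t-KO molecules allows up to 5.9 CPM, which put these 6 sequences at least 71.8-fold to 107-fold lower than in β5i-KO mice (edgeR adjusted p 0.00653 to 0.0453). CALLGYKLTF was found in 4 of the 5 β5i-KO mice, so the groups overlapped for it, and the rest were found in all 5. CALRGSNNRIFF, for example, was at 406, 816, 341, 444 and 1161 CPM in the β5i-KO mice. WT mice held it at 308 to 813 CPM.

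The most abundant CDR3α shared by the genotypes did not pass the test. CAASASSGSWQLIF, a join of TRAV14 genes to TRAJ22 without added bases in its commonest form, averaged 12523 ± 6372 CPM (SD, n = 4) in the β5t-KO group and 8059 ± 1028 CPM (SD, n = 5) in the β5i-KO group. Its log2 difference was 0.64 ± 0.44 (SE, edgeR adjusted p 0.31), and its sign turned with another scaling of the libraries (-0.25 with TMM, -0.22 with DESeq2). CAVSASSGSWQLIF averaged 1051 ± 313 CPM (SD, n = 4) in the β5t-KO group and 2379 ± 727 CPM (SD, n = 5) in the β5i-KO group, with an edgeR adjusted p of 0.28. The scaling also moved the balance of calls. TMM moved the median CDR3α fold change by -0.32 on the log2 scale and gave 3 higher and 10 lower calls, and DESeq2 moved it by -0.2 and gave 9 higher and 575 lower. All 20 sequences kept their direction under both. With replicate number as a block, 7 sequences were called, among them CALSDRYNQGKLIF, CALSDRYSNNRLTL, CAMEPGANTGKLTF, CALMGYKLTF and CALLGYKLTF, and all 20 kept their direction. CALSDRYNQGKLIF, CALSDRYSNNRLTL, the 15-residue TRAJ15 join and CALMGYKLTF kept their call under every alternative run for them. The other 8 named sequences with a test lost it when a further BIT library was added to the fit (edgeR adjusted p 0.0823 to 0.0951). With the block, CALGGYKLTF, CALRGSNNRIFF, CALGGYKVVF, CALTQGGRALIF and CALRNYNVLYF had an edgeR adjusted p of 0.104 to 0.189 and the TRAJ5 join 0.269. The TRAJ5 join also lost its call without β5i-KO replicate 2 or 3 or β5t-KO replicate 2, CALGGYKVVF without β5t-KO replicate 1 (0.0545) and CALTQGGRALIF without that mouse or β5i-KO replicate 2. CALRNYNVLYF lost it without any one of 7 mice (edgeR adjusted p 0.0505 to 0.0995).

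**Figure D1:**
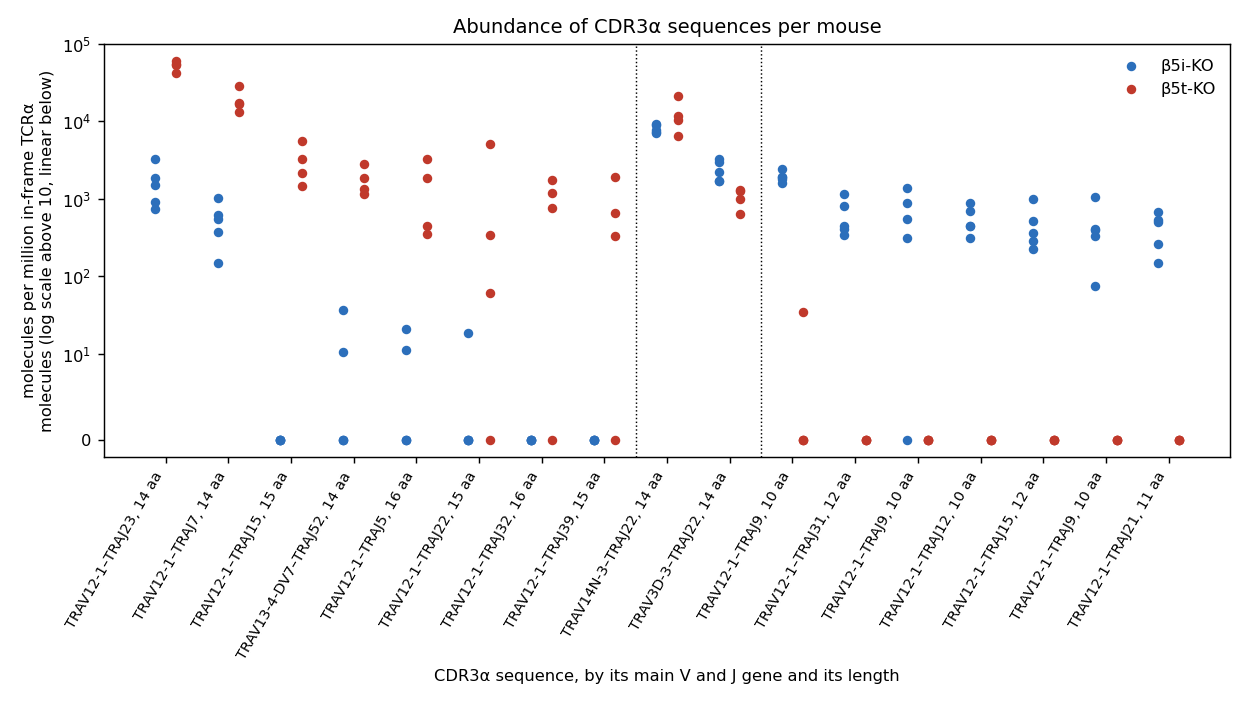
Level in CPM (y axis, log scale above 10 and linear below) of the CDR3α sequences named by rule (x axis, by V gene, J gene and length), one point per mouse. Left of the first dotted line are 8 sequences higher in β5t-KO mice, right of the second are 7 lower ones, 6 of them at 0 in all 4 β5t-KO mice, and the 2 between did not pass the test.

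The arginine at position 6 was not limited to the named sequences. It was chosen for description after these sequences had been seen, so no test is given. Among TRAV12 clonotypes, each counted once, arginine stood at position 6 in 19.04%, 27.2%, 18.6% and 26.2% of the β5t-KO mice and in 11.2%, 10.3%, 10.8%, 11.6% and 10.4% of the β5i-KO mice. Every β5t-KO mouse was above every β5i-KO mouse, and WT mice lay between, at 12.1% to 15.6%. Counted as molecules, these clonotypes made up 41.9% ± 4.88 of TRAV12 molecules (SD, n = 4) in the β5t-KO group and 11.7% ± 0.195 (SD, n = 5) in the β5i-KO group. The 8 called sequences with this arginine held 61.5% to 67% of those molecules in the 4 β5t-KO mice and 5.88% to 11.5% in the 5 β5i-KO mice. With these 8 left out, which was added after the values were seen, arginine at position 6 was in 17.3%, 19.7%, 16.6% and 21.6% of TRAV12 clonotypes in β5t-KO mice and in 9.75% to 11.1% in β5i-KO mice. Of TRAV12 molecules it was then in 20.1% ± 2.48 and 10.9% ± 0.38 (SD, n = 4 and n = 5), so the gap was smaller and the groups still did not overlap. Among clonotypes of all other V genes, the share with arginine there was 3.29% ± 0.348 in β5t-KO and 3.86% ± 0.357 in β5i-KO mice (SD, n = 4 and n = 5). The share of TRAV12 itself overlapped, at 22.3% to 25.5% of clonotypes in β5t-KO and 23.3% to 29.1% in β5i-KO mice. TRAV12 clonotypes of 10 residues went the other way, with 1.17% ± 0.141 of TRAV12 clonotypes in β5t-KO and 4.65% ± 0.66 in β5i-KO mice (SD, n = 4 and n = 5).

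CDR3α sequences weighed by their molecules separated the genotypes. Similarity was measured with the Morisita–Horn index, which weighs shared sequences by their share of molecules and runs from 0 for no shared sequence to 1 for equal pools. It averaged 0.782 over the 6 pairs of β5t-KO mice (0.675 to 0.91), 0.525 over the 10 pairs of β5i-KO mice (0.421 to 0.775) and 0.121 over the 20 pairs of different genotype (0.0591 to 0.211). No pair between genotypes was as alike as any pair within one. The within-genotype mean exceeded the between-genotype mean by 0.501 (exact permutation of the labels, two-sided p = 0.0159, the smallest these 126 labelings can give). With replicate number as a block the excess was 0.553 (exact permutation p = 0.25, the smallest that 4 pairs can give for similarity). For other measures tested by permutation 4 pairs cannot give a p below 0.125. The block could therefore not pass for this or any other such measure. β5t-KO mice had an index of 0.282 with WT mice on average, and β5i-KO mice 0.474; the difference between these was not tested.

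The similarity among β5t-KO mice lay in few sequences. Without the 10 CDR3α sequences of highest mean share over the 9 mice, the index fell to 0.124 among β5t-KO mice and to 0.401 among β5i-KO mice, and was 0.165 between them. The excess within genotypes was then 0.132 (exact permutation p = 0.0159). With libraries thinned to 13519 molecules and sequences scored as present or absent, the Jaccard index was 0.0473 among β5t-KO mice, 0.106 among β5i-KO mice and 0.0627 between them, an excess of 0.0215 (exact permutation p = 0.0159). By presence alone, pairs of β5t-KO mice shared fewer sequences on average than pairs of different genotype.

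**Figure D2:**
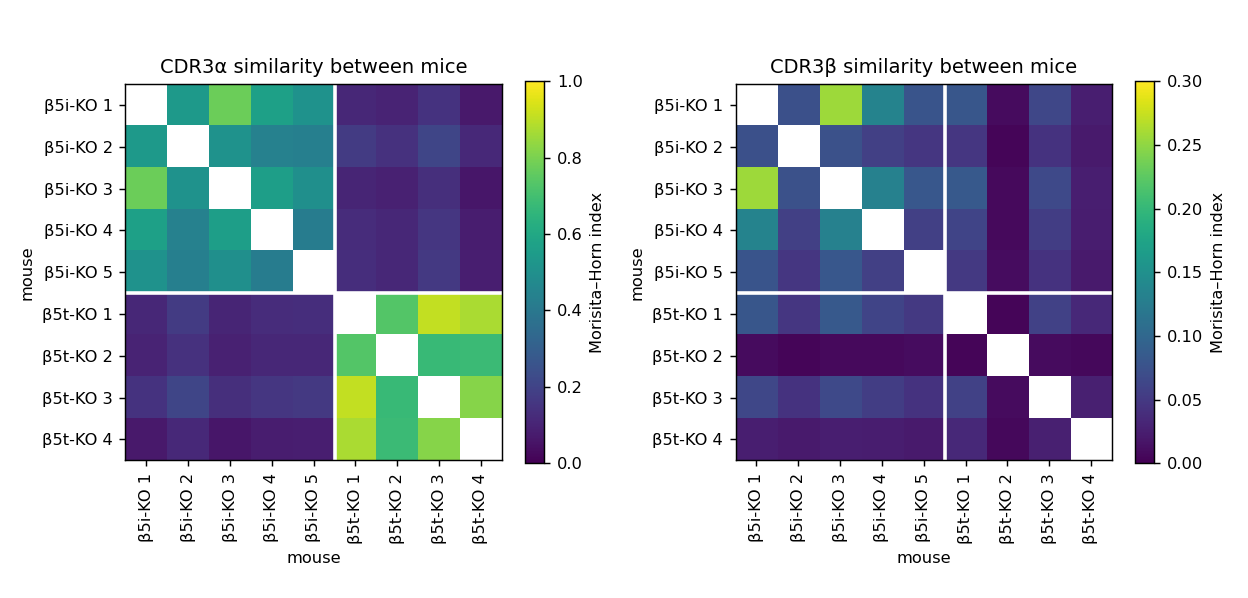
Morisita–Horn index between each pair of the 9 mice, for CDR3α (left) and CDR3β (right), with separate colour scales and white lines between the genotypes. Both CDR3α blocks within a genotype (averages 0.525 and 0.782) stand out from the 20 pairs between genotypes (average 0.121), while all CDR3β pairs are at or below 0.256.

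CDR3β was far less shared. The index averaged 0.0231 among β5t-KO mice (0.00468 to 0.0576), 0.0991 among β5i-KO mice (0.0479 to 0.256) and 0.0377 between genotypes (0.00411 to 0.0844). The excess within genotypes was 0.0329 (exact permutation p = 0.0159), and 0.0328 with the block (exact permutation p = 0.25). The excess came from the β5i-KO pairs. Pairs of β5t-KO mice were on average less alike than pairs of different genotype, also after thinning (0.0186 against 0.0267). It rested in part on 1 pair, β5i-KO replicates 1 and 3, and without either of them the excess was 0.0131. No CDR3β sequence of 3287 tested passed (0% called), with 743 at an unadjusted p under 0.05 in edgeR and 38 called by DESeq2. The 3 CDR3β with the highest mean level in β5t-KO mice were all found in replicate 2 alone of that group, the mouse with 393 TCRβ clonotypes. They therefore describe that library and not the group. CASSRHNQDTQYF, the first of them, was at 17082 CPM in β5t-KO replicate 2 and undetected in the other 3 β5t-KO mice. In β5i-KO mice the 3 commonest were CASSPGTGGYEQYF, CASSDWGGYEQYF and a 14-residue sequence whose commonest genes were TRBV4 and TRBJ2-7, at 617 ± 162, 481 ± 380 and 480 ± 234 CPM (SD, n = 5), each present in all 5 mice. Against β5t-KO mice their edgeR adjusted p values were 0.773, 0.283 and 0.509.

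The β5t-KO repertoires were more concentrated. The 10 commonest CDR3α sequences of a mouse held 10.6%, 13.3%, 9.11% and 12.4% of its in-frame molecules in β5t-KO mice and 2.33%, 3.04%, 2.2%, 2.51% and 2.92% in β5i-KO mice. The groups did not overlap, and the difference was 8.75 percentage points (exact permutation p = 0.0159, adjusted p = 0.0346 over 24 measures), and 8.83 with the block (exact permutation p = 0.125). WT mice held 3.75% ± 0.886 (SD, n = 4). Evenness was measured as the Shannon index divided by its largest possible value, so that equal abundances give 1. After thinning it was 0.927 ± 0.00477 (SD, n = 4) in the β5t-KO group and 0.966 ± 0.00458 (SD, n = 5) in the β5i-KO group, also without overlap (exact permutation p = 0.0159, adjusted p = 0.0346). For CDR3β the top 10 share was 1.87%, 10.4%, 2.45% and 2.96% in β5t-KO and 0.606% to 1.07% in β5i-KO mice. That difference of 3.62 percentage points passed (exact permutation p = 0.0159, adjusted p = 0.0346), and it was 1.62 without β5t-KO replicate 2 and 3.68 with the block (exact permutation p = 0.125). The CDR3β Shannon index was 0.964 ± 0.0147 (SD, n = 4) in the β5t-KO group and 0.986 ± 0.00865 (SD, n = 5) in the β5i-KO group, with the same p. With the block the Shannon index differed by -0.0402 in CDR3α and -0.024 in CDR3β (exact permutation p = 0.125 for both).

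The number of distinct sequences overlapped between the genotypes. At 13519 molecules per mouse, 4249, 555, 4789 and 1402 CDR3α sequences were expected in the β5t-KO mice and 7863, 3708, 7913, 6011 and 3363 in the β5i-KO mice. Replicates 1 and 3 of the β5t-KO mice were above replicates 2 and 5 of the β5i-KO mice, and the difference of -3023 sequences did not pass (exact permutation p = 0.0952, adjusted p = 0.134). At 7669 TCRβ molecules the means were 2492 ± 1783 (SD, n = 4) in the β5t-KO group and 5288 ± 1572 (SD, n = 5) in the β5i-KO group, with the same p values.

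CDR3α was longer in β5t-KO mice. Its mean length over clonotypes was 13.76, 13.87, 13.75 and 13.82 residues in β5t-KO mice and 13.65, 13.53, 13.64, 13.55 and 13.54 residues in β5i-KO mice, without overlap. WT mice averaged 13.56 ± 0.0349 (SD, n = 4). The difference was 0.22 residues (exact permutation p = 0.0159, adjusted p = 0.0346), and 0.153 when each of 39 J genes had equal weight (exact permutation p = 0.0159). With the block it was 0.21 residues (exact permutation p = 0.125). Of 11 lengths from 8 to 18 residues, 5 passed (45.5% called, each with exact permutation p = 0.0159 and adjusted p = 0.0349). Those of 10, 11 and 12 residues were less frequent in β5t-KO mice and those of 14 and 16 more frequent. CDR3α of 10 residues made up 0.911% ± 0.182 of clonotypes (SD, n = 4) in the β5t-KO group and 1.91% ± 0.303 (SD, n = 5) in the β5i-KO group, and those of 16 residues 8.78% ± 0.902 and 6.7% ± 0.595. Those of at most 11 residues together made up 4.24% ± 1.16 and 7.66% ± 0.646.

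CDR3β lengths were not told apart. The mean was 13.9 ± 0.0492 residues (SD, n = 4) in the β5t-KO group and 13.88 ± 0.0233 (SD, n = 5) in the β5i-KO group, and the difference of 0.0117 residues was within the spread (exact permutation p = 0.778). None of its 11 lengths passed (0% called, exact permutation, lowest p 0.0476 at 18 residues, adjusted p = 0.466).

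**Figure D3:**
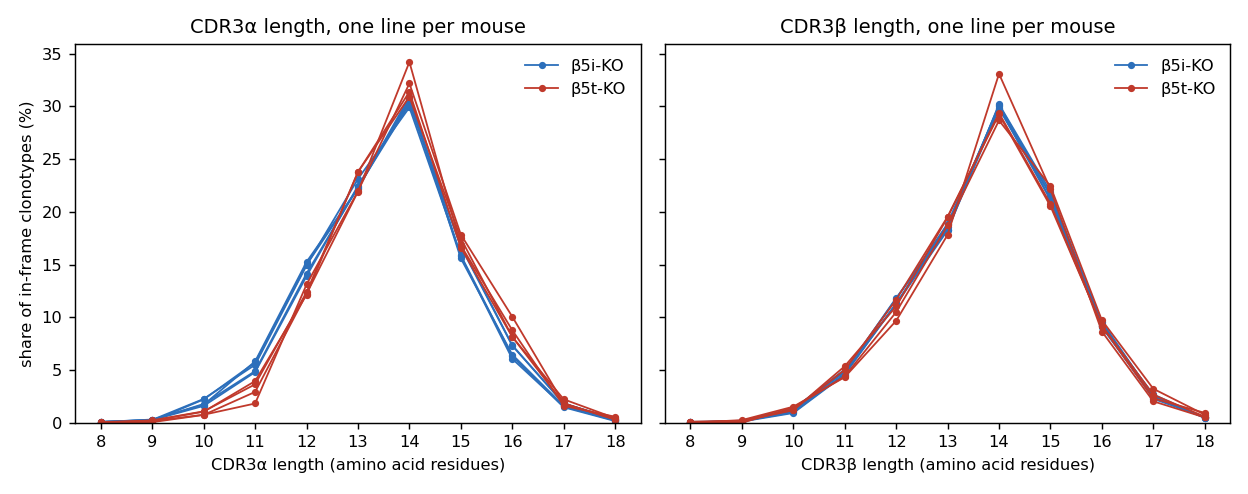
Share of in-frame clonotypes (%) at each CDR3 length in residues, one line per mouse, for CDR3α (left) and CDR3β (right). In CDR3α the β5t-KO lines lie under the β5i-KO lines at 10 to 12 residues and over them at 14 and 16, while in CDR3β the lines of the genotypes cross.

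V gene usage was compared as shares of clonotypes, so that an expanded clone counts once. Of 93 TRAV genes, 7 passed (7.53% called by edgeR), 3 higher and 4 lower in β5t-KO mice. TRAV13-4-DV7 was at 1.04%, 0.457%, 0.747% and 0.688% in β5t-KO mice and at 0.389%, 0.294%, 0.382%, 0.38% and 0.279% in β5i-KO mice. The groups did not overlap, though the value of β5t-KO replicate 2 rested on 3 clonotypes. The log2 fold change was 1.2 ± 0.21 (SE, edgeR adjusted p 5.99e-05). TRAV13-4-DV7 lies on chromosome 14 from 53994813 to 53995378. TRAV14-1 rose as well, with a log2 fold change of 0.85 ± 0.15 (SE) and an edgeR adjusted p of 5.99e-05, but β5t-KO replicate 2, at 1.22%, was below every β5i-KO mouse. TRAV17 was at 1.92% ± 0.316 (SD, n = 4) in the β5t-KO group and 1.28% ± 0.0828 (SD, n = 5) in the β5i-KO group, a log2 change of 0.62 ± 0.15 (SE, edgeR adjusted p 0.00345). Counted as molecules, TRAV14-1 and TRAV17 no longer passed (edgeR adjusted p 0.135 and 0.233).

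The lower TRAV genes were TRAV7-3, TRAV7D-3, TRAV8-1 and TRAV16N. TRAV7-3 fell from 2.64% ± 0.218 of clonotypes in β5i-KO (SD, n = 5) to 1.75% ± 0.133 in β5t-KO mice (SD, n = 4), with log2 fold change -0.61 ± 0.13 (SE, edgeR adjusted p 0.00105). Its near copy TRAV7D-3 fell too, with a log2 fold change of -0.80 (edgeR adjusted p 0.00254), and reads of such copies may be split between them. The log2 fold change of TRAV8-1 was -0.82 (edgeR adjusted p 0.01), and that of TRAV16N was -0.42 (edgeR adjusted p 0.0466). TRAV16N did not pass in the fit of the 9 mice alone or with replicate number as a block (edgeR adjusted p 0.0956 and 0.0526), nor without any one of 6 mice. TRAV8-1 did not pass without β5i-KO replicate 3 or β5t-KO replicate 3 (edgeR adjusted p 0.0616 and 0.129). Several V genes were listed for 24.5% to 32.6% of TCRα clonotypes in β5t-KO mice and 33.2% to 39% in β5i-KO mice, and each was assigned to the first. Joining genes into subgroups, which such copies share, 4 of 21 passed (19% called by edgeR). TRAV17 and TRDV2 were higher, and TRAV8 and TRAV16 lower (log2 fold change 0.62, 0.56, -0.46 and -0.43). TRDV2 did not pass in the fit of the 9 mice alone, in DESeq2 or without any one of 7 mice (adjusted p 0.0503 to 0.261). Without β5t-KO replicate 3, only TRAV17 of these 4 passed.

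TRAJ usage shifted along the locus, where J genes with high numbers lie nearest the V genes. Of 43 TRAJ genes, 9 passed (20.9% called by edgeR), 5 higher and 4 lower in β5t-KO mice. TRAJ52 had the largest change. It stood at 2.2%, 3.66%, 2.11% and 2.52% of clonotypes in β5t-KO mice and at 1.21%, 1.16%, 1.18%, 1.21% and 0.989% in β5i-KO mice. The groups did not overlap, WT mice stood at 1.04% to 1.36%, and the log2 fold change was 1.00 ± 0.13 (SE, edgeR adjusted p 2.26e-06). TRAJ52 lies on chromosome 14 from 54402773 to 54402838. Joins to TRAV13-4-DV7 made up 4.17% to 9.3% of its clonotypes in β5t-KO mice, and without them it was still at 1.91% to 3.51% there, against 0.989% to 1.19% in β5i-KO mice.

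The other higher TRAJ genes were TRAJ50, TRAJ57, TRAJ56 and TRAJ27, with log2 fold changes of 0.44, 0.42, 0.34 and 0.3 (edgeR adjusted p 0.00399, 0.0121, 0.0344 and 0.00881). TRAJ57 did not pass without β5t-KO replicate 1 or 3 (edgeR adjusted p 0.0573 and 0.114), nor TRAJ56 without those or β5i-KO replicate 1 or 2 (0.0594 to 0.17). TRAJ27 was at 3.46% to 3.66% of clonotypes in the 4 β5t-KO mice and at 2.48% to 2.97% in the 5 β5i-KO mice. TRAJ31, TRAJ12 and TRAJ15 were lower, by log2 fold changes of -0.36, -0.41 and -0.26 (edgeR adjusted p 0.000836, 0.00116 and 0.0121). TRAJ31 was at 3.66%, 3.51%, 3.51% and 2.93% in β5t-KO mice and at 4.16% to 4.82% in β5i-KO mice. TRAJ12 was at 2.5% ± 0.46 (SD, n = 4) in the β5t-KO group and 3.54% ± 0.289 (SD, n = 5) in the β5i-KO group. TRAJ15, the J gene of 2 of the sequences that were higher in β5t-KO mice, was used by a smaller share of distinct clonotypes there, though β5t-KO replicate 2, at 4.42%, was above all β5i-KO mice. Without β5t-KO replicate 1 or 3 it did not pass (edgeR adjusted p 0.0573 and 0.0798). The fourth lower gene, TRAJ6, outside the rule and named after its values were seen, had a log2 fold change of -0.42 (edgeR adjusted p 0.0356).

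By region of the locus, 4 of the 12 genes from TRAJ61 to TRAJ43 were called higher and none lower, with a median log2 fold change of 0.21 against 0.02 over all 43 genes. Of the 14 genes from TRAJ21 to TRAJ2, 3 were called lower and none higher (median -0.25). The first region held 24.1%, 24.5%, 23.4% and 21.3% of clonotypes in β5t-KO mice and 19.3% to 20.3% in β5i-KO mice, without overlap (exact permutation p = 0.0159, adjusted p = 0.0346). The last region held 27.3% ± 0.894 (SD, n = 4) in the β5t-KO group and 31.2% ± 0.557 (SD, n = 5) in the β5i-KO group, with the same p values. With the block the first region differed by 3.37 points and the last by -4.13 (exact permutation p = 0.125 for both). The middle region, from TRAJ42 to TRAJ22, held 49.4% ± 0.759 and 48.9% ± 0.61 (exact permutation p = 0.302). Counted as molecules, the first region differed by 2.36 points (exact permutation p = 0.0794), the middle one by 2.79 points (p = 0.0159). Without β5t-KO replicate 1 or replicate 3, 5 TRAJ genes passed. The fit of the 9 mice alone called 17 and molecules 16.

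**Figure D4:**
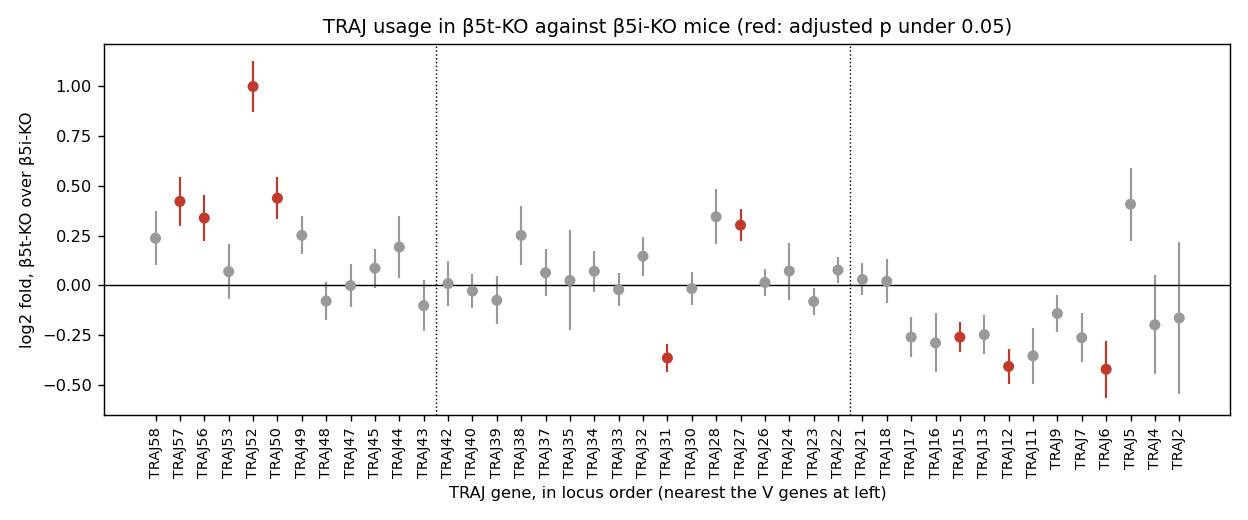
Log2 fold change of TRAJ usage, β5t-KO over β5i-KO mice (y axis), for 43 TRAJ genes in locus order (x axis), from distinct clonotypes. Bars are SE, red points passed the test, and dotted lines part the regions. All 4 called genes left of the first line are above 0, and all 3 called genes right of the second are below 0.

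In TCRβ the usage differences were fewer. Of 23 TRBV genes, TRBV2 alone passed (4.35% called by edgeR). It was at 5.56%, 5.85%, 5.56% and 5.02% of clonotypes in β5t-KO mice and at 2.73%, 4.36%, 2.66%, 3.04% and 3.82% in β5i-KO mice, without overlap, and at 3.44% to 5.21% in WT mice. The log2 fold change was 0.73 ± 0.17 (SE, edgeR adjusted p 0.0148). It did not pass counted as molecules (edgeR adjusted p 0.0851), nor without β5t-KO replicate 1 or 3 (0.0516 and 0.0531). TRBV2 lies on chromosome 6 from 41024274 to 41024929. TRBV20 had a log2 difference of -0.56 and TRBV14 of 0.27 (edgeR adjusted p 0.241 and 0.305). With replicate number as a block 3 TRBV genes passed, TRBV2, TRBV16 and TRBV20, the last at -0.55 (edgeR adjusted p 0.0308). As subgroups, 1 of 20 passed, which was TRBV2 (5% called by edgeR).

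Of 12 TRBJ genes, 2 passed (16.7% called by edgeR). TRBJ2-1 was at 14.8% ± 1.3 (SD, n = 4) in the β5t-KO group and 12.9% ± 0.534 (SD, n = 5) in the β5i-KO group, with log2 fold change 0.24 ± 0.05 (SE, edgeR adjusted p 0.000207). TRBJ1-1 was at 9.17% ± 0.194 and 10.9% ± 0.902, with log2 fold change -0.23 ± 0.07 (SE, edgeR adjusted p 0.00793). TRBJ1-2, with a log2 difference of -0.2, missed the threshold (edgeR adjusted p 0.074), but it passed with replicate number as a block, at -0.21 (edgeR adjusted p 0.00392), and in the fit of the 9 mice alone (edgeR adjusted p 0.0112). With replicate number as a block 5 TRBJ genes passed, and without β5i-KO replicate 4 also 5. The TRBJ1 cluster as a whole held 27.8% ± 1.05 of clonotypes (SD, n = 4) in the β5t-KO group and 31.2% ± 2.34 (SD, n = 5) in the β5i-KO group, with exact permutation p = 0.0476 and adjusted p = 0.0816.

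Out-of-frame rearrangements make no receptor, and were used to see whether called genes were shifted there too. They were few, 62 to 817 TCRα and 26 to 240 TCRβ clonotypes per β5t-KO mouse. For 19 called genes, the log2 ratio of the in-frame to the out-of-frame share was compared between genotypes, and none passed (0 of 19, exact permutation, lowest adjusted p 0.151). 2 had an unadjusted exact permutation p of 0.0159, the smallest these mice can give, and still an adjusted p of 0.151. A gene that separated the genotypes fully could thus not pass on its own. The test therefore cannot decide whether the ratios differed. TRAJ31 held 7.01% of out-of-frame clonotypes in β5t-KO and 5.42% in β5i-KO mice on average, against its lower in-frame share in β5t-KO mice. The ratio of TRAV16N differed by -0.56 on the log2 scale, lower in β5t-KO mice. TRBV2 was at 4.17%, 7.69%, 4.94% and 8.82% of out-of-frame clonotypes in β5t-KO mice, on 29 clonotypes in all, and at 2.37% to 5.42% in β5i-KO mice. Its in-frame to out-of-frame ratio differed by -0.07 on the log2 scale (exact permutation p = 0.905). TRAV13-4-DV7 averaged 1.06% of out-of-frame clonotypes in β5t-KO and 0.523% in β5i-KO mice, on 13 and 35 clonotypes. Its ratio differed by 0.08 (exact permutation p = 0.937). TRAV17 averaged 1.25% and 0.582% out of frame, TRAJ57 1.44% and 0.923%, and TRAJ52 1.65% and 1.21%. TRAJ27 and TRAJ50, also called higher in-frame, were not higher there, at 3.27% against 3.78% and 1.08% against 1.11%.

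TCRβ joins of β5t-KO mice held fewer added nucleotides, counted from V to D and from D to J. Where no D segment was recognised, all bases between the V and J ends were counted as added. The share of such clonotypes was not compared between the genotypes. The mean was 2.72, 2.89, 2.82 and 2.99 nucleotides per clonotype in β5t-KO mice and 2.99 to 3.05 in β5i-KO mice, without overlap, though β5t-KO replicate 4 and β5i-KO replicate 4 were both at 2.99. The difference was -0.171 nucleotides (exact permutation p = 0.0159, adjusted p = 0.0346), and -0.172 with the block (exact permutation p = 0.125). Clonotypes with none made up 18.8% ± 1.9 (SD, n = 4) in the β5t-KO group and 14.8% ± 0.33 (SD, n = 5) in the β5i-KO group, with the same p values. Weighted by molecules, the difference in added nucleotides was -0.184 with exact permutation p = 0.0794. In TCRα the mean was 2.25 ± 0.05 (SD, n = 4) in the β5t-KO group and 2.3 ± 0.117 (SD, n = 5) in the β5i-KO group, within the spread (exact permutation p = 0.476).

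The residues in the CDR3 centre, that is without the first 4 and last 4, gave no call in either chain (0% called, exact permutation, 20 residues, lowest adjusted p 0.0794 in CDR3α and 0.159 in CDR3β). These lowest values belong to residues that already had the smallest p these mice can give. A residue that separated the genotypes fully could thus not pass on its own. The lack of calls therefore cannot decide whether such residues differed. At an unadjusted p under 0.05 there were 7 residues in CDR3α and 3 in CDR3β. In CDR3α 4 of 20 residues did not overlap between the genotypes (20% of those tested). Aspartate made up 5.71% ± 0.209 of centre residues in β5t-KO and 5.16% ± 0.188 in β5i-KO mice, and arginine 2.91% ± 0.208 and 2.55% ± 0.125 (SD, n = 4 and n = 5). Glycine differed by -0.687 percentage points and asparagine by -0.737, both lower in β5t-KO mice. With only 3 residues left out at each end, arginine stood at 5.2% and 5.34%, the opposite order.

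In CDR3β, 2 of 20 residues did not overlap (10% of those tested), tryptophan and arginine. Tryptophan, a large aromatic residue, made up 2.99% ± 0.171 of centre residues in the β5t-KO group (SD, n = 4). In the β5i-KO group it made up 2.15% ± 0.0277 (SD, n = 5). Its exact permutation p was 0.0159, the smallest these mice can give, and its adjusted p was still 0.159. Arginine made up 5.56% ± 0.204 and 5.91% ± 0.0813, with the same p values, and serine, next in order, differed by -0.448 percentage points (exact permutation p = 0.0317). Clonotypes with tryptophan anywhere in the centre, counted after that difference was seen and so without a test, were 18.3%, 16.3%, 17.5% and 16.6% in β5t-KO mice. In β5i-KO mice they were 12.5%, 12.6%, 12.5%, 12.5% and 12.2%, and in WT mice 11.7% to 13.8%. The higher share was seen at each of positions 5 to 8, with 7.32% ± 0.282 against 5.21% ± 0.317 at position 7 (SD, n = 4 and n = 5). It was also seen outside the TRBV2 clonotypes, at 17.1% ± 0.875 and 12.4% ± 0.1.

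**Figure D5:**
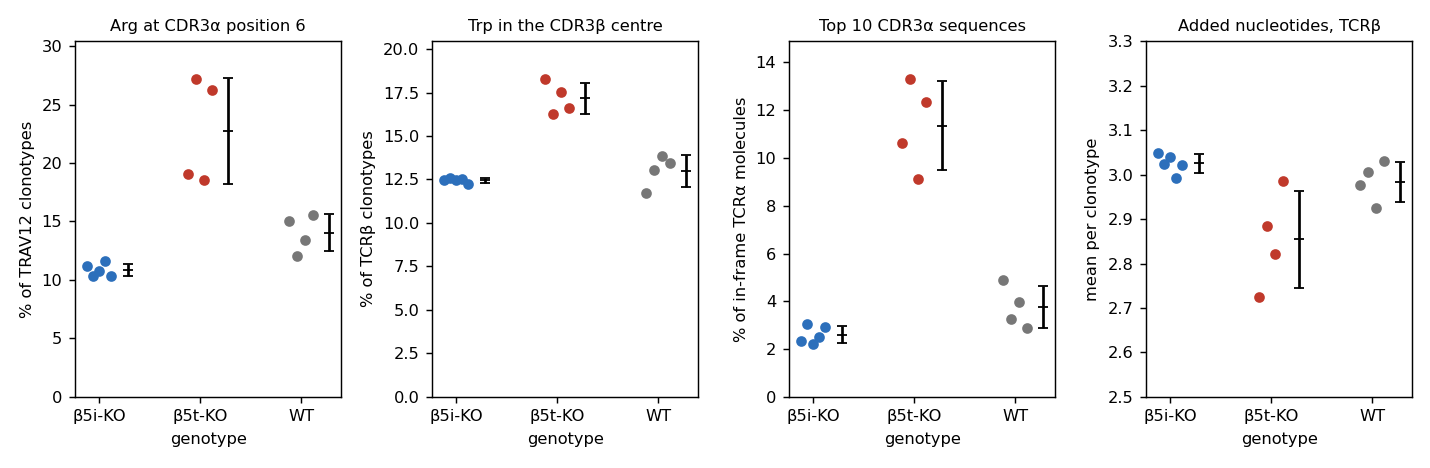
Values per mouse in β5i-KO, β5t-KO and WT mice, with mean and SD in black: share of TRAV12 clonotypes with arginine at CDR3α position 6, share of TCRβ clonotypes with tryptophan in the CDR3β centre, share of TCRα molecules in the 10 commonest sequences, and mean added nucleotides in TCRβ (axis from 2.5). In the first 3 panels every β5t-KO mouse is above every β5i-KO mouse, and in the last every one is below.

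Hydropathy and charge of the centre differed little. On the Kyte-Doolittle scale, where higher is more hydrophobic, the CDR3β centre averaged -1.05 ± 0.0274 (SD, n = 4) in the β5t-KO group and -1.1 ± 0.0222 (SD, n = 5) in the β5i-KO group, with exact permutation p = 0.0317 and adjusted p = 0.0586. The CDR3α centre averaged -1.25 ± 0.0138 and -1.27 ± 0.0101, with the same p values. The sign of the CDR3α difference turned when clonotypes were weighted by molecules (-0.0601) or J genes equally (-0.0216). Net charge, counted as lysine and arginine less aspartate and glutamate, differed by -0.0107 charges in CDR3α and 0.00168 in CDR3β (exact permutation p = 0.317 and 0.905).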

How the data were processed

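CD8 T cell RNA from single mice was made into TCR α and β libraries with a kit that tags molecules. Reads were assembled into clones by the authors in the format of MiXCR, whose version and settings are not given in the sources used here. The deposited tables give whole-number read counts and unique molecule counts per clone, not normalised. Gene positions were read from the GENCODE vM39 annotation (GRCm39), because the tables give none.

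Clones out of frame or with a stop codon were left out except where stated, the first listed V gene was used, and a library needed at least 1000 in-frame reads and 100 sequences. Depth is given in the report, and the limits given for counts of 0 cover counting error only. The SE of an edgeR fold change was worked out from its test. It is the absolute log2 fold change divided by the square root of the test statistic F. edgeR 4.0.16 in R 4.3.3 (quasi-likelihood, library size normalisation, threshold 0.05) was fitted to 17 libraries (4 WT, 5 β5i-KO, 4 β5t-KO, 4 BIT, the last mice carrying β5t in place of β5i), with genes of at least 5 clonotypes in at least 4 libraries. DESeq2 1.42.0 was an alternative. Per-mouse measures were compared by exact permutation, two-sided, which with 4 against 5 mice cannot go below 0.0159. These permutation p-values measure the spread between these mice. Those of edgeR rest on a spread estimated over all 17 libraries and pooled over the features tested, so they can go far below 0.0159. Other values used Python 3.11.15, numpy 2.4.6, pandas 2.3.3, scipy 1.17.1 and matplotlib 3.10.9. Scripts were tested on simulated data.

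The text names the V and J genes called by edgeR, at most 8 (TRAV, TRAJ) or 6 (TRBV, TRBJ) with the smallest p and otherwise the 3 smallest, V subgroups called, up to 6 CDR3 sequences per direction with the largest fold change, the 3 commonest per group, and residues and lengths called or the 3 smallest p, ties included. The members and lists were chosen with earlier results of these data known. Of 32 pairs of libraries within a group and chain, 0 were identical.

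Replicate numbers are shared by the groups. Over 171 V and J genes, the deviations of same-numbered mice from their group means correlated at 0.171 to 0.324, and all 4 β5t-KO mice were closest to the β5i-KO mouse of their own number, so the numbers were taken to pair the mice. The labels do not say what a number marks. The blocked value is given beside a result where it changed a call. Permutation within 4 pairs cannot go below 0.125, and the limit is higher for similarity.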

Additional observations from a re-analysis of the deposited data

Results flagged for a closer look

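Among 90 groups of 4 or 5 mice examined, 7 held 1 mouse that stood apart from the rest of its group (7.78%, where chance gives about 1 in 20). β5t-KO replicate 2 had a CDR3β top 10 share of 10.4%, while the other 3 β5t-KO mice were at 1.87% to 2.96%; it is also the mouse with the fewest TCRβ clonotypes, 393, and the part of depth in this was not tested. β5t-KO replicate 3 had the highest CDR3α Shannon index of its group, 0.934 against 0.924 to 0.925. β5t-KO replicate 4 had the lowest TRAJ57 usage of its group, 1.38% against 1.64% to 1.69%. β5i-KO replicate 4 had the highest CDR3β centre hydropathy of its group, -1.06 against -1.12 to -1.1, and the lowest TRBV20 usage, 2.04% against 3.05% to 3.3%. β5i-KO replicate 5 had the lowest TRAJ52 usage of its group, 0.989% against 1.16% to 1.21%, and β5i-KO replicate 2 the lowest TRAJ27 usage, 2.48% against 2.84% to 2.97%.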

How the results depend on the processing

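The paired comparison of 4 numbered pairs cannot give a p below 0.125, with a higher limit for similarity. No measure tested by permutation could therefore pass under the replicate block. All of these kept their direction: CDR3α similarity 0.553, Shannon index -0.0402, top 10 share 8.83 and mean length 0.21; CDR3β similarity 0.0328, Shannon index -0.024, top 10 share 3.68 and added nucleotides -0.172; and the TRAJ21 to TRAJ2 and TRAJ61 to TRAJ43 shares -4.13 and 3.37. CDR3α hydropathy (0.023), CDR3β hydropathy (0.0483) and the TRBJ1 share (-2.87), which had passed before adjustment alone, did too. In edgeR the block gave 3 calls for TRBV genes and subgroups, 5 for TRBJ and 7 for CDR3α sequences. The block changed no other call count by over 1.5 times.

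Other settings changed these values. By molecules, calls were 2 for TRAV subgroups, 16 for TRAJ, 0 for TRBV genes and 0 for TRBV subgroups, the TRAJ42 to TRAJ22 difference was 2.79 and passed, and TRAJ61 to TRAJ43 (2.36), CDR3β added nucleotides (-0.184) no longer passed, nor did CDR3β hydropathy (0.0333) before adjustment. Molecule weights also turned the sign of CDR3α added nucleotides (0.00502), the CDR3α share without them (-0.437), CDR3α hydropathy (-0.0601), CDR3α net charge (0.017) and CDR3β of at least 16 residues (-0.217). With at least 2 molecules per clonotype, TRBJ had 1 call and the TRBJ1 share (-3.03) did not pass before adjustment. CDR3β similarity did not pass by the Jaccard index (0.0036) or by nucleotide sequence (0.00354). The fit of 9 libraries called 17 TRAJ genes. CDR3α sequence calls were 13 with TMM, 584 with DESeq2, 10 with the 9 libraries, 4 with all 18, 261 with 10 CPM in all libraries of a group, 10 with reads and 9 with V, J and CDR3 together, and CDR3β calls were 38 with DESeq2. TMM and DESeq2 turned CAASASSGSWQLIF (-0.25 and -0.22) and the 14-residue CDR3β of TRBV4 and TRBJ2-7 (-1.94 and -1.72), as TMM moved the median CDR3β fold change by -0.77 on the log2 scale and DESeq2 by -0.45; neither sequence was called. Equal weight to each J gene, chosen after seeing the data, turned CDR3α hydropathy (-0.0216) and CDR3β of at most 11 residues (-0.0917), and a window without 3 residues at each end turned CDR3β net charge (-0.0143), as did the replicate block (-0.00465). The cause of these changes was not tested.

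Leaving out each mouse gave 0.448 to 0.558 for CDR3α similarity and 0.0131 to 0.0507 for CDR3β similarity, 0.018 to 0.0287 and 0.0423 to 0.0623 for CDR3α and CDR3β hydropathy, -4.23 to -2.86 for TRBJ1, and calls of 5 to 11 for TRAV, 1 to 5 for TRAV subgroups, 5 to 12 for TRAJ, 0 to 1 for TRBV, 2 to 5 for TRBJ and 12 to 32 for CDR3α sequences. The extremes came without β5i-KO replicate 2 for TRAV (11) and CDR3α sequences (12), and without β5t-KO replicate 3 for CDR3α sequences (32). CDR3β mean length ran from -0.0107, without β5t-KO replicate 4, to 0.0255. Without β5t-KO replicate 4 the share of CDR3β of at least 16 residues was -0.262, and over the other leave-outs it reached 0.612. CDR3β net charge ran from -0.00753 to 0.0125 and turned sign without any one of 4 mice. With 4 mice against 4 the similarity test cannot go below 0.0571. Depth limits the β5t-KO side most, since 656 TCRα and 393 TCRβ clonotypes of replicate 2 weigh as much per mouse as those of deeper libraries.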

Other observations

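β5t-KO replicate 5, left out of all comparisons, held 1112 in-frame TCRα molecules in 24 CDR3α sequences. Of these, 10 were also found in the other β5t-KO mice, 13 in β5i-KO mice and 11 in neither group. Its 11 CDR3β sequences came from 47 molecules, and 2 of them were found in the other β5t-KO mice and 4 in β5i-KO mice.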
